A study of Mus musculus with 2 samples.

Results

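The cells described here are the untreated cells of 63.3, a mouse acute myeloid leukemia line, taken as every cell whose barcode call stands for one of the 0 h cultures. They number 2856 of the 12540 cells with a call for a single culture. The culture BRQ_0h, the start of a brequinar time course, gave 1503 cells, and the culture E2w_0h, the start of a beta-estradiol withdrawal time course, gave 1353 cells. Both were grown in the same medium, with 10% dialyzed serum, 4 mM glutamine, 0.5 µM beta-estradiol and 1% conditioned medium that supplies stem cell factor. The labels do not say whether BRQ_0h received a solvent, and they do not name the oncogene or the receptor through which beta-estradiol acts in this line. The line is a single leukemia, so nothing here shows how untreated leukemias differ. The other 8 cultures of the series are the same line after 6, 12, 24 or 48 h of brequinar at 2 µM, or after the same times without beta-estradiol.

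Each culture was marked before pooling with a lipid-anchored DNA barcode (MULTI-seq), and these 2 barcodes decide which cells are described. They are given 5′ to 3′ as deposited, in lower case throughout.
BRQ_0h: agagagag
E2w_0h: cgaccagc

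An acute myeloid leukemia is a clone of blood progenitors that keeps dividing and is held short of maturity. Normal blood progenitors switch on the genes of several lineages at low levels before they commit, and leukemias can keep such mixed programs. Kit, the receptor for stem cell factor, and Cd34, a surface sialomucin, mark stem and progenitor cells. Ebf1 is a transcription factor that specifies B cells, Mpo is the myeloperoxidase of the primary granules of neutrophil and monocyte precursors, and Prg2 is the major basic protein of eosinophil granules. These 5 genes were the markers chosen for the untreated cells.

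BRQ_0h held 19931921 spliced UMIs and E2w_0h held 18627497. A UMI marks 1 captured RNA molecule, and levels are given in CPM, the gene's UMIs scaled to a fixed total per culture. Since each molecule is counted once at its 3′ end, a level needs no correction for gene length. The median cell had 14849 UMIs from 3849 genes in BRQ_0h and 15229 UMIs from 3879 genes in E2w_0h. Cells with 10% or more of their UMIs from mitochondrial genes made up 18.4% of BRQ_0h and 16.6% of E2w_0h, and they were shallow, with medians of 2221 UMIs in BRQ_0h and 2041.5 UMIs in E2w_0h. Each 0 h culture is 1 culture, so no test was run. All intervals are exact 95% intervals that cover counting error only, and the distance between both cultures is the only repeat of the untreated state.

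The cultures were close to each other. Among the 5490 genes that reached 20 CPM in BRQ_0h, in E2w_0h or in both, 3 differed at least 1.5-fold (0.0546%), and the central 95% of genes had a ratio of BRQ_0h over E2w_0h between 0.908 and 1.12. All 3 were lower in BRQ_0h. S100a9, a calcium-binding protein of neutrophils, stood at 53.4 CPM in BRQ_0h and 83.6 CPM in E2w_0h, a ratio of 0.639 (0.591 to 0.692). Ngp, a protein of neutrophil secondary granules, stood at 13.9 CPM in BRQ_0h and 22.0 CPM in E2w_0h, a ratio of 0.634 (0.542 to 0.740). BC100530, an unnamed gene model, had a ratio of 0.665 (0.594 to 0.743). These differences were smaller without a few cells. In 1 cell of BRQ_0h and 2 cells of E2w_0h, 7 genes of late neutrophil maturation (Ltf, Camp, Ngp, Lcn2, Chil3, S100a8 and S100a9) made up at least 2% of all UMIs. This rule was chosen after the values were seen and uses S100a9 and Ngp themselves. Without these 3 cells the ratio of S100a9 was 0.951 (0.856 to 1.06), that of Ngp was 0.765 (0.581 to 1.00) and that of BC100530 was 0.764 (0.675 to 0.865), and no gene differed 1.5-fold.

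The 25 genes with the highest mean level held 14.5% of all UMIs in BRQ_0h and 14.3% in E2w_0h. They included 9 ribosomal protein genes and 4 mitochondrial genes, led by mt-Cytb, the mitochondrial cytochrome b, at 15402 CPM in BRQ_0h and 14665 CPM in E2w_0h. Next came Ptma, a small nuclear protein of dividing cells, at 9895 CPM in BRQ_0h and 9961 CPM in E2w_0h, and Actb, cytoplasmic actin, at 9854 CPM in BRQ_0h and 9783 CPM in E2w_0h. Fth1 (ferritin heavy chain), Hsp90ab1 (a chaperone), Tmsb4x (which binds actin monomers), Eef1a1 (translation elongation), Npm1 (a nucleolar protein) and the respiratory chain subunits Cox8a and Ndufa4 were also among them. So were 2 myeloid genes. Plac8, a small cysteine-rich protein of myeloid progenitors, stood at 6565 CPM in BRQ_0h and 6556 CPM in E2w_0h. Ctsg, the granule protease cathepsin G, stood at 4415 CPM in BRQ_0h and 4437 CPM in E2w_0h.

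Genes of 14 lineage lists, 252 genes in all, were read for a level of 20 CPM or more in both cultures. There were 70 such genes, against 5323 of all 54736 gene names (9.72%). The lists were chosen with earlier results of these data known, so their share is a description. Spliced counts also miss some genes: Fen1 and Gins2, replication genes that dividing cells use, stood at 0.401 and 0.351 CPM in BRQ_0h and both at 0.376 CPM in E2w_0h, and Lyz2 and Cd24a were at 0 in both. A level near 0 therefore says that a gene was not counted, not that its RNA was absent.

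**Figure D1:**
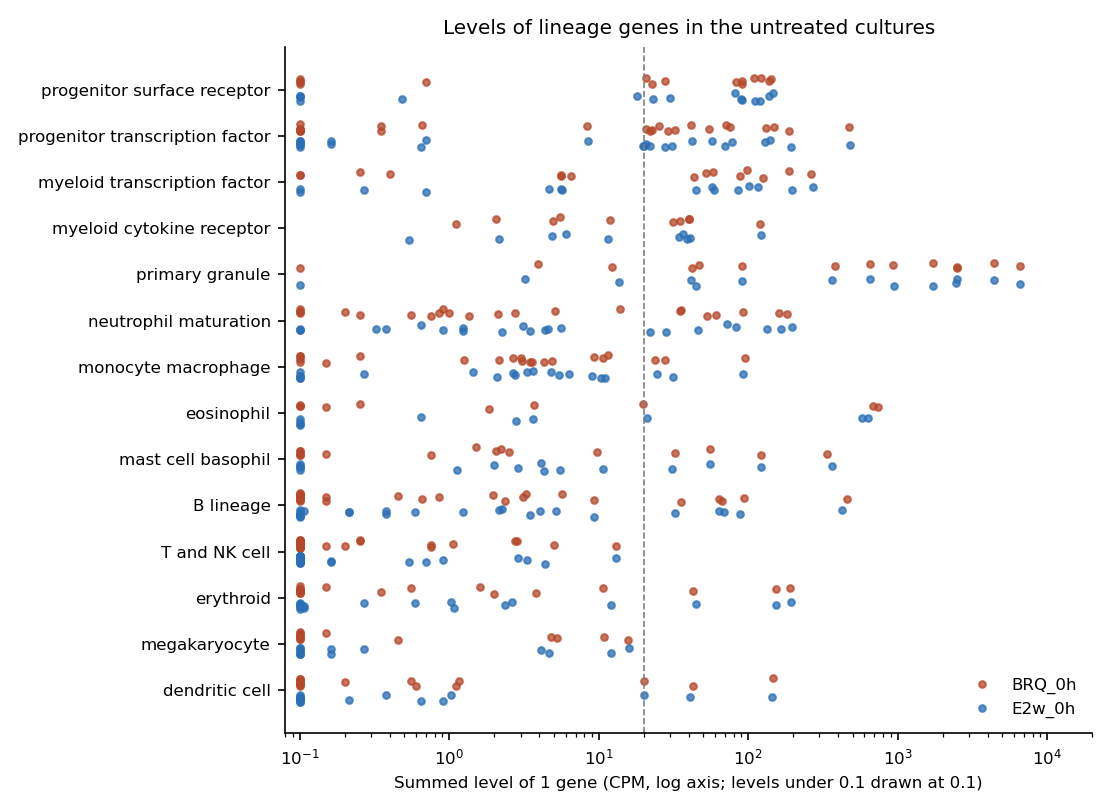
Level of each gene of the 14 lineage lists in BRQ_0h (upper row of points in each list) and E2w_0h (lower row); each point is 1 gene, the axis is in CPM on a log scale, and the dashed line marks 20 CPM. The primary granule list reaches 6565 CPM, and no gene of the T and NK cell or the megakaryocyte list passes the line.

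The primary granule list stood highest, with 11 of its 14 members at 20 CPM or more and 1.99% of all UMIs in each culture. Prtn3, the granule protease proteinase 3, stood at 2481 CPM in BRQ_0h and 2505 CPM in E2w_0h. Srgn, the proteoglycan that packs granule proteases, stood at 2496 CPM in BRQ_0h and 2462 CPM in E2w_0h, and Mpo stood at 931 CPM in BRQ_0h and 941 CPM in E2w_0h. Elane, the neutrophil elastase packed in the same granules, was much lower, at 42.3 CPM in BRQ_0h and 41.6 CPM in E2w_0h. Members of the list such as Plac8 and Srgn are made by other blood cells too, while Mpo, Prtn3, Ctsg and Elane encode granule enzymes.

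Genes of later myeloid stages were counted in part, and the highest of them stood above Kit and Cd34. In the neutrophil maturation list 7 of 23 members reached 20 CPM in both cultures, led by Anxa1, an anti-inflammatory lipid-binding protein, at 181 CPM in BRQ_0h and 196 CPM in E2w_0h. Lcn2, which binds iron carriers of bacteria, stood at 160 CPM in BRQ_0h and 167 CPM in E2w_0h. Stfa1, a protease inhibitor of the stefin family, stood at 92.3 CPM in BRQ_0h and 133 CPM in E2w_0h and its family holds near-identical copies between which counts may be split. Free RNA in the droplets, described further on, could give at most 35.7 CPM of Stfa1 in BRQ_0h and 39.5 CPM in E2w_0h. The summed level of the list was 648 CPM in BRQ_0h and 776 CPM in E2w_0h, against 6417 CPM in free RNA. Itgam and Ly6g, surface markers of mature neutrophils, had at most 0.0537 CPM in either culture. In the monocyte and macrophage list 3 of 21 members reached 20 CPM, namely the chemokine receptor Ccr2 (95.0 CPM in BRQ_0h, 92.5 CPM in E2w_0h), the secreted protein Spp1 (27.7 CPM in BRQ_0h, 31.3 CPM in E2w_0h) and the clotting factor subunit F13a1 (23.6 CPM in BRQ_0h, 24.5 CPM in E2w_0h). Csf1r, the receptor that monocytes need, stood at 1.10 CPM in BRQ_0h and 0.537 CPM in E2w_0h.

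Progenitor genes were counted in part. Among surface receptors, 9 of 15 reached 20 CPM in both cultures and 5 were under 1 CPM in both. Cd48, a receptor of the SLAM family, stood at 137 CPM in BRQ_0h and 146 CPM in E2w_0h. Cd34 stood at 141 CPM in BRQ_0h and 138 CPM in E2w_0h, and Kit at 121 CPM in both. Flt3, a cytokine receptor of early progenitors, stood at 90.8 CPM in BRQ_0h and 89.0 CPM in E2w_0h. Among progenitor transcription factors 12 of 25 reached 20 CPM in both and 10 were under 1 CPM in both. Of all 54736 gene names only 17268 had any count in BRQ_0h and 17050 in E2w_0h, so most names lay under 1 CPM. Myb, which early blood cells need for growth, was the highest at 476 CPM in BRQ_0h and 480 CPM in E2w_0h. Hlf, a factor of stem cells, stood at 188 CPM in BRQ_0h and 194 CPM in E2w_0h, and Sox4 at 148 CPM in BRQ_0h and 140 CPM in E2w_0h. Hoxa9 and Meis1, a pair of factors that drive many myeloid leukemias, stood at 75.9 and 41.6 CPM in BRQ_0h and at 78.4 and 42.1 CPM in E2w_0h. Hoxa10 had no count in any of the 10 cultures, and Hoxa5 had none in either culture.

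The list of myeloid transcription factors had 8 of 15 members at 20 CPM or more in both. Cebpb, a factor of emergency granulopoiesis, stood at 263 CPM in BRQ_0h and 271 CPM in E2w_0h, and Spi1, the master factor PU.1, at 187 CPM in BRQ_0h and 198 CPM in E2w_0h. Cebpe, which drives late granulocyte genes, stood at 126 CPM in BRQ_0h and 117 CPM in E2w_0h. Cebpa, which commits cells to the granulocyte path, stood at 58.3 CPM in BRQ_0h and 58.7 CPM in E2w_0h. Irf8, the factor of the monocyte path, stood at 0.251 CPM in BRQ_0h and 0.268 CPM in E2w_0h. Of 10 myeloid cytokine receptors 5 reached 20 CPM: the interferon gamma receptor chain Ifngr1 (119 CPM in BRQ_0h, 121 CPM in E2w_0h), the GM-CSF receptor chains Csf2rb (40.4 CPM in BRQ_0h, 40.9 CPM in E2w_0h) and Csf2ra (40.4 CPM in BRQ_0h, 38.8 CPM in E2w_0h), the TNF receptor Tnfrsf1a and the IL-17 receptor chain Il17ra. Csf2rb has a close copy, Csf2rb2, so its counts may be split. Esr1, the estrogen receptor, stood at 4.87 CPM in BRQ_0h and 3.65 CPM in E2w_0h.

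The B lineage genes formed a partial program. Of 27 members 5 reached 20 CPM in both cultures. Ebf1 stood at 461 CPM in BRQ_0h and 426 CPM in E2w_0h, about as high as Myb. Igll1, a part of the surrogate light chain that Ebf1 is known to activate in B cell precursors, stood at 93.4 CPM in BRQ_0h and 88.5 CPM in E2w_0h. Tcf3, which encodes the E2A factors that act with Ebf1, stood at 67.2 CPM in BRQ_0h and 69.1 CPM in E2w_0h. Cd79b, a chain of the B cell receptor complex, stood at 63.9 CPM in BRQ_0h and 63.7 CPM in E2w_0h, and Vpreb3, a protein of B cell precursors, at 35.4 CPM in BRQ_0h and 32.2 CPM in E2w_0h. The genes of committed B cells were nearly uncounted. Pax5, the factor of B commitment, had 0.0502 CPM in BRQ_0h and 0.215 CPM in E2w_0h. Cd79a, the partner chain of Cd79b, had 3.26 CPM in BRQ_0h and 4.03 CPM in E2w_0h, and Rag1, which recombines antigen receptor genes, had no count in either.

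Genes of the eosinophil and mast cell lineages were partial in the same way. Prg2 stood at 684 CPM in BRQ_0h and 631 CPM in E2w_0h. Prg3, a homologue of Prg2, stood at 737 CPM in BRQ_0h and 580 CPM in E2w_0h, a ratio of 1.27 (1.24 to 1.3). The other 8 genes of the list did not reach 20 CPM in both. Siglecf, a surface lectin of eosinophils, stood at 19.7 CPM in BRQ_0h and 21.1 CPM in E2w_0h, while Epx, the eosinophil peroxidase, stood at 0.251 CPM in BRQ_0h and 0.644 CPM in E2w_0h. Of 16 mast cell and basophil genes 4 reached 20 CPM. Cpa3, the mast cell carboxypeptidase, stood at 337 CPM in BRQ_0h and 362 CPM in E2w_0h. The monoamine transporter Slc18a2 stood at 123 CPM in BRQ_0h and 122 CPM in E2w_0h, the basophil protease Mcpt8 at 55.7 CPM in BRQ_0h and 55.6 CPM in E2w_0h, and Gata2, a factor of progenitors and mast cells, at 32.3 CPM in BRQ_0h and 30.8 CPM in E2w_0h.

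Of the other lineage lists few genes reached 20 CPM in both cultures, 3 of 19 in the erythroid list and 2 of 18 in the dendritic cell list. In the erythroid list these were the carbonic anhydrase Car2 (190 CPM in BRQ_0h, 194 CPM in E2w_0h), the transferrin receptor Tfrc (155 CPM in BRQ_0h, 153 CPM in E2w_0h) and the factor Nfe2 (42.9 CPM in BRQ_0h, 44.6 CPM in E2w_0h). Gata1, the master factor of red cells, stood at 3.81 CPM in BRQ_0h and 2.63 CPM in E2w_0h. In the dendritic cell list they were Bst2 (148 CPM in BRQ_0h, 144 CPM in E2w_0h), an antiviral membrane protein, and the factor Runx2 (42.5 CPM in BRQ_0h, 40.8 CPM in E2w_0h). The factor Tcf4 stood at the threshold, just under 20 CPM in BRQ_0h and just over it in E2w_0h. No member of the megakaryocyte list (14 genes, highest Gp9, a platelet adhesion receptor chain, at 15.8 CPM in BRQ_0h and 16.1 CPM in E2w_0h) or of the T and NK cell list (26 genes, highest the adaptor Lat at 13.1 CPM in both) passed. Cd3e, a chain of the T cell receptor, had 0.0502 CPM in BRQ_0h and no count in E2w_0h. All 7 leukocyte genes passed, among them Ptprc (CD45) at 109 CPM in BRQ_0h and 105 CPM in E2w_0h, as did 18 of 20 S phase genes and 20 of 20 G2/M genes. Of 15 genes of epithelium and stroma only Vim and Pecam1, which blood cells also express, passed in both cultures.

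How many cells carried a gene depended on depth. Over all cells a UMI of Mpo was found in 96.4% of BRQ_0h and 96.7% of E2w_0h, of Ebf1 in 91.5% of BRQ_0h and 91.1% of E2w_0h, and of Prg2 in 88.6% of BRQ_0h and 87.7% of E2w_0h. Kit was found in 71.5% of BRQ_0h and 73.9% of E2w_0h, and Cd34 in 69.3% of BRQ_0h and 68.9% of E2w_0h. Each cell was then thinned to 4000 UMIs, which kept 1220 cells of BRQ_0h and 1115 of E2w_0h and left out 283 shallower cells of BRQ_0h and 238 of E2w_0h. At that depth Mpo was found in 91.6% of BRQ_0h (89.9 to 93.1) and 91.9% of E2w_0h (90.2 to 93.5), and Ebf1 in 74.4% of BRQ_0h (71.9 to 76.9) and 72.6% of E2w_0h (69.9 to 75.2). Prg2 was found in 49.7% of BRQ_0h (46.8 to 52.5) and 47.5% of E2w_0h (44.6 to 50.5). Kit was found in 37.8% of BRQ_0h (35.1 to 40.6) and 38.3% of E2w_0h (35.4 to 41.2), and Cd34 in 41.7% of BRQ_0h (38.9 to 44.5) and 38.2% of E2w_0h (35.3 to 41.1). The order of the markers by detected cells, Mpo, Ebf1, Prg2 and then Kit and Cd34 close together, was the same in both cultures, and the interval of each marker overlapped between them. Of other genes of the lists, Hlf was found in 47.3% of BRQ_0h and 48.4% of E2w_0h, Cebpe in 31.7% of BRQ_0h and 30.6% of E2w_0h, and Cpa3 in 52.4% of BRQ_0h and 56.1% of E2w_0h. Igll1 was found in 24.2% of BRQ_0h and 21.6% of E2w_0h, and Myb in 83.4% of BRQ_0h and 83.0% of E2w_0h. Of the maturation list, Anxa1 was found in 44.4% of BRQ_0h and 47.6% of E2w_0h, and Lcn2 in 41.7% and 39.2%.

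Free RNA in the droplets can give a cell a UMI of a gene it does not express. From barcodes of 2 to 100 UMIs, and from the gene least counted in cells relative to those barcodes, free RNA could make up at most 2.38% of the UMIs of BRQ_0h and 2.63% of those of E2w_0h. The bound is a share of the summed UMIs of a culture, and the same share was taken for every cell. Whether shallower cells held a larger share was not tested, so the shares of cells below are no upper limits. At that bound free RNA would place Ebf1 in 1.69% of thinned BRQ_0h cells and 1.86% of thinned E2w_0h cells. It would place Kit and Cd34 in 1.19 to 1.36% of either. For Mpo the bound was 10.7% of BRQ_0h and 11.8% of E2w_0h, and for Prg2 it was 25.8% of BRQ_0h and 28.1% of E2w_0h, since Prg2 made up 3139 CPM of the free RNA. Prg2 was thus the marker whose detected cells free RNA could supply the most. For Anxa1 and Lcn2 the bound ran between 5.25 and 6.44% of the thinned cells of either culture. In level, free RNA at the bound gives at most 74.6 of the 684 CPM of Prg2 in BRQ_0h and 82.5 of the 631 CPM in E2w_0h. Cells of another culture of the pool are given beside this. The cells of the culture 48 h after withdrawal shared the droplet suspension, and at 2500 UMIs Ebf1 was found in 2.93% of them. At the same depth it was found in 62.4% of BRQ_0h and 59.3% of E2w_0h. Over the full counts the median cell of the 48 h culture had 6509 UMIs. Whether its Ebf1 UMIs were background, came from wrong barcode calls or were the cells' own RNA was not tested.

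**Figure D2:**
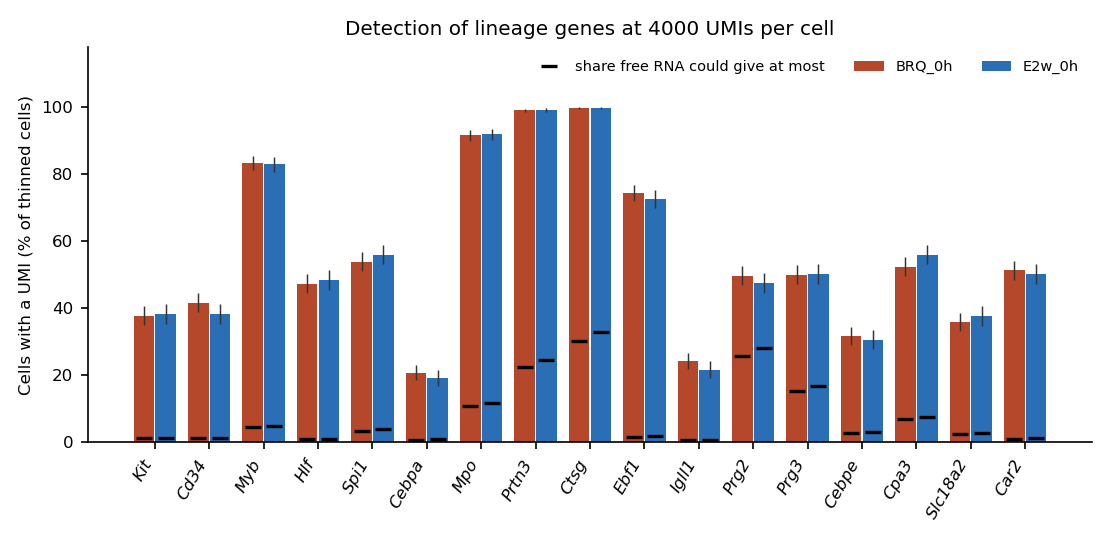
Share of cells with at least 1 UMI of a gene after thinning to 4000 UMIs per cell. Bars are in % of 1220 BRQ_0h cells (left bar) and 1115 E2w_0h cells (right bar). Whiskers are exact 95% intervals. Black ticks mark the share that free RNA would give at its bound if every cell held the same share of it. The ticks lie under 5% for Kit, Cd34, Myb and Ebf1. In E2w_0h they reach 32.9% for Ctsg and 28.1% for Prg2.

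Most of the untreated cells therefore carried the B lineage factor and the granule enzyme together. Ebf1 and Mpo were both found in 839 of 1220 BRQ_0h cells (68.8%, 66.1 to 71.4) and in 750 of 1115 E2w_0h cells (67.3%, 64.4 to 70). If detection of one had nothing to do with detection of the other, the product of both shares gives 68.2% in BRQ_0h and 66.8% in E2w_0h. The ratio of the observed share to the product was 1.01 in both, but it has little room to move where Mpo is found in nearly all cells. The odds ratio of the same pair was 1.44 in BRQ_0h and 1.36 in E2w_0h. Over all 10 pairs of the markers the ratio of observed share to product ran between 0.977 and 1.08 in BRQ_0h. In E2w_0h it ran between 0.869 and 1.13. The odds ratios of these pairs ran wider. They ran from 0.819 (Kit and Mpo) to 1.64 (Cd34 and Ebf1) in BRQ_0h, and from 0.666 (Cd34 and Prg2) to 1.47 (Cd34 and Ebf1) in E2w_0h. Kit and Cd34 had a ratio of 1.08 in BRQ_0h and 1.13 in E2w_0h, with odds ratios of 1.251 in BRQ_0h and 1.396 in E2w_0h, and Cd34 and Ebf1 had one of 1.07 in BRQ_0h and 1.06 in E2w_0h, with odds ratios of 1.64 in BRQ_0h and 1.47 in E2w_0h. Cd34 and Prg2 had ratios of 0.977 in BRQ_0h and 0.869 in E2w_0h, with both genes in 20.2% of BRQ_0h cells and 15.8% of E2w_0h cells, against products of 20.7% in BRQ_0h and 18.2% in E2w_0h. The order of the pairs changed with the depth of the cells used: over both cultures Kit and Cd34 had a mean ratio of 1.10, and 1.05 without the 10% of cells of the most UMIs, where Cd34 and Ebf1 had 1.07, and Cd34 and Prg2 had a mean ratio of 0.923, and 1.02 with no thinning.

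All 5 markers were found in 79 of 1220 BRQ_0h cells (6.48%, 5.16 to 8.01) and in 62 of 1115 E2w_0h cells (5.56%, 4.29 to 7.07), against products of 5.34% in BRQ_0h and 4.64% in E2w_0h. In 20 random draws of the thinned counts the share ran between 5.00 and 6.64% in BRQ_0h, and between 4.04 and 6.19% in E2w_0h. The observed share was above the product of its own draw in 20 of 20 draws in BRQ_0h and in 17 of 20 in E2w_0h. The mean ratio was 1.19 in BRQ_0h and 1.12 in E2w_0h. The draws share their cells and are not replicates, so they show the noise of thinning only. The ratio also depended on the cells used. Over both cultures it was 0.984 without the 10% of cells of the most UMIs. It was 1.07 without cells of 10% or more mitochondrial UMIs. Most cells had 2 to 4 of the markers. None of the 5 was found in 6 BRQ_0h cells and in 4 E2w_0h cells. Taking Kit or Cd34 as a single progenitor mark, all of progenitor mark, Ebf1, Prg2 and Mpo were found in 22.8% of BRQ_0h cells (20.5 to 25.2) and 18.3% of E2w_0h cells (16.1 to 20.7), against products of 21.2% in BRQ_0h and 19.0% in E2w_0h. At full depth all 5 markers were found in 48.1% of BRQ_0h cells and 48.0% of E2w_0h cells. Where 2 UMIs make a thinned cell positive, the mean share with all 5 was 0.172%. Free RNA at its bound would place Prg2 in 25.8% of thinned BRQ_0h cells and 28.1% of thinned E2w_0h cells. Its part in these shares was not tested. Pairs of cells from 1 culture in 1 droplet cannot be called by barcodes and would carry both cells' genes; if pairs form at random they make up 2.61% of the cells used.

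**Figure D3:**
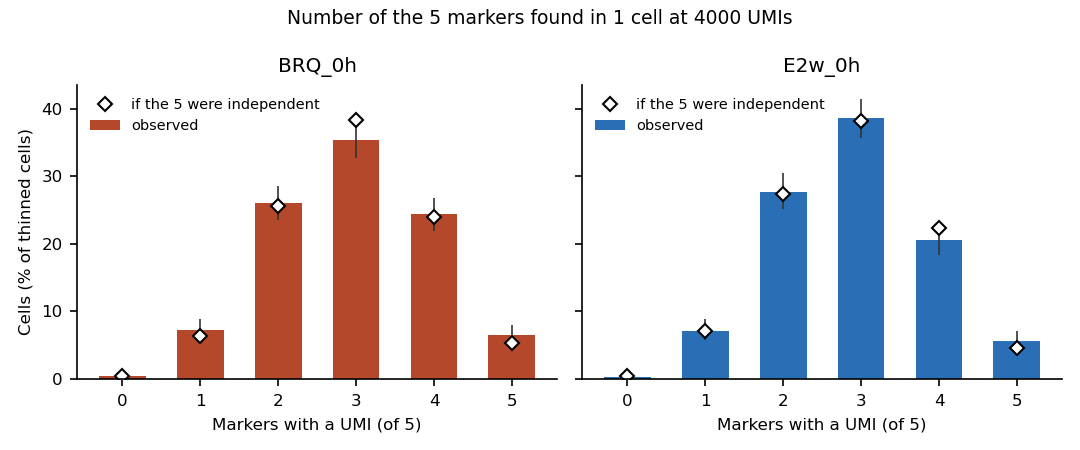
Number of the 5 markers (Kit, Cd34, Ebf1, Prg2, Mpo) with a UMI in a cell thinned to 4000 UMIs, in % of cells of BRQ_0h (left) and E2w_0h (right); bars are observed shares with exact 95% intervals, and diamonds show what the 5 single shares give if independent. The diamonds lie near the bars, under them at 5 markers in both cultures, and 3 markers is the most frequent number, at 35.4% in BRQ_0h and 38.6% in E2w_0h.

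Away from the 5 markers, a pair that was found together less often was Prg3 and Igll1. Both were found in 9.02% of BRQ_0h cells and 8.70% of E2w_0h cells, against products of 12.1% in BRQ_0h and 10.9% in E2w_0h, which gives ratios of 0.746 in BRQ_0h and 0.801 in E2w_0h. Prg3 and Prg2 were found together more often than the product, in 27.3% of BRQ_0h cells and 27.7% of E2w_0h cells against products of 24.8% in BRQ_0h and 23.9% in E2w_0h. These 2 pairs were chosen after their values were seen, among 28 pairs of the markers with Prg3, Cpa3 and Igll1.

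Cell-to-cell spread was small for most genes and very large for a few. Over 4842 genes with at least 0.1 UMI per thinned cell, the variance over the mean (the Fano factor, 1 for pure counting noise) had a median of 1.04 in BRQ_0h and 1.03 in E2w_0h. It reached 2 in 45 genes of BRQ_0h and in 43 genes of E2w_0h, of which 39 were the same. Prg2 ranked first in both, at 161 in BRQ_0h and 414 in E2w_0h, and Prg3 stood at 35.9 in BRQ_0h and 27.4 in E2w_0h. The other 18 of the 20 highest in BRQ_0h fell in a few kinds. The neutrophil genes Chil3, S100a8, S100a9 and Stfa1 ranged between 8.61 and 23.8 in BRQ_0h and between 6.67 and 41.4 in E2w_0h. Mitochondrial genes (mt-Cytb, mt-Nd1, mt-Nd2, mt-Nd4 and mt-Rnr2) ranged between 3.61 and 24.2 in BRQ_0h and between 3.64 and 19.5 in E2w_0h, and of the cells kept 34 in BRQ_0h and 18 in E2w_0h had 10% or more mitochondrial UMIs. The granule list gave Elane (7.74 in BRQ_0h, 4.19 in E2w_0h), Ms4a3 (5.45 in BRQ_0h, 4.76 in E2w_0h), Prtn3 (5.18 in BRQ_0h, 5.25 in E2w_0h), Plac8 (4.87 in BRQ_0h, 4.68 in E2w_0h) and Ctsg (4.51 in BRQ_0h, 3.61 in E2w_0h). Cpa3 stood at 4.27 in BRQ_0h and 8.72 in E2w_0h, and Actb, Tmsb4x and the nuclear RNA Malat1 made up the rest.

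The markers were spread over the cells in different ways. The 5% of thinned cells highest for Mpo held 18.0% of its UMIs in BRQ_0h and 16.8% in E2w_0h, and those highest for Ebf1 held 18.9% in BRQ_0h and 19.4% in E2w_0h. For Prg2 the highest 5% of cells held 78.7% of its UMIs in BRQ_0h and 80.2% in E2w_0h, and for Prg3 62.4% in BRQ_0h and 58.8% in E2w_0h. If the Prg2 UMIs had been spread evenly by depth, 94.5% of BRQ_0h cells and 94.7% of E2w_0h cells would have carried one, against the 49.7% of BRQ_0h and 47.5% of E2w_0h observed. The level of Prg2 in the untreated cells thus described few cells, and that of Ebf1 and Mpo described most of them.

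**Figure D4:**
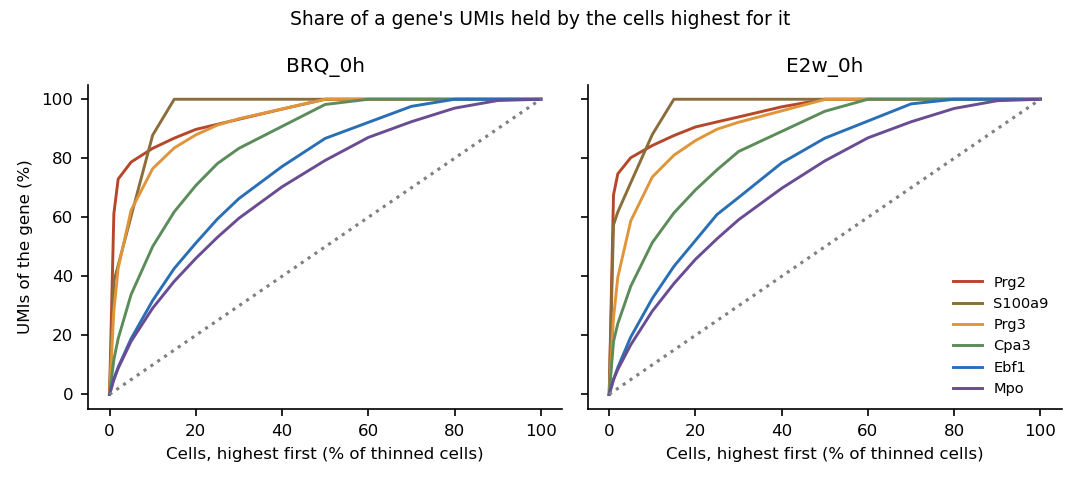
Share of a gene's UMIs (%) held by the cells highest for that gene, in cells thinned to 4000 UMIs of BRQ_0h (left) and E2w_0h (right); the dotted line is an equal share per cell. Prg2 rises steepest, with 78.7% of its UMIs in BRQ_0h and 80.2% in E2w_0h in the highest 5% of cells, and Ebf1 and Mpo run lowest. Even counting noise lifts a curve above the dotted line.

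The cells high in Prg2 were looked at as a range. In 25 BRQ_0h cells (1.66%) and 14 E2w_0h cells (1.03%), Prg2 and Prg3 together made up at least 2% of all UMIs, a threshold chosen after the values were seen. Near it, 12 BRQ_0h cells and 17 E2w_0h cells had 1 to 2%, and 5 BRQ_0h cells and 3 E2w_0h cells had 2 to 3%. The median over all cells was 0.0360% in BRQ_0h and 0.0354% in E2w_0h, and the highest cell reached 20.4% in BRQ_0h and 30.1% in E2w_0h. These few cells held 66.0% of the Prg2 UMIs of BRQ_0h and 60.2% of those of E2w_0h. Their median depth was 13630 UMIs in BRQ_0h, against 14926.5 in the other cells, and 10689 UMIs in E2w_0h, against 15263. Of them, 1 cell in BRQ_0h and none in E2w_0h lay above the 90th percentile of depth of its culture. Mitochondrial UMIs of 10% or more were found in 9 of the 25 cells of BRQ_0h and 4 of the 14 of E2w_0h.

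Without Prg2 and Prg3 themselves, some genes of granulocyte lineages were higher in these cells and others lower. Hdc, the enzyme that makes histamine, stood at 150 CPM in them against 7.99 CPM in the other cells of BRQ_0h, 18.8-fold higher (12.7 to 27.0), and at 171 CPM against 9.53 CPM in E2w_0h, 18.0-fold higher (11.0 to 28.1). Anxa1 was 8.04-fold higher in BRQ_0h (7.16 to 9.0) and 9.33-fold higher in E2w_0h (8.11 to 10.7). Cebpe was 7.89-fold higher in BRQ_0h (6.85 to 9.04) and 6.01-fold higher in E2w_0h (4.79 to 7.44). Cpa3 was 5.02-fold higher in BRQ_0h (4.53 to 5.56) and 3.43-fold higher in E2w_0h (2.91 to 4.01). Mcpt8, of the same list as Cpa3, was lower in BRQ_0h on 2 UMIs, with a ratio of 0.144 (0.0174 to 0.520). On 3 UMIs in E2w_0h its ratio was 0.418 (0.0861 to 1.22), an interval that includes 1. Gata1, which eosinophils and mast cells need as well as red cells, was 24.7-fold higher in BRQ_0h on 18 UMIs (13.7 to 42.5) and 9.38-fold higher in E2w_0h on 3 UMIs (1.87 to 29.2). Siglecf had a ratio of 1.65 in BRQ_0h (0.709 to 3.29) and 1.11 in E2w_0h (0.227 to 3.26), and Epx had 1 UMI in the 25 cells and none in the 14. Gata2 had a ratio of 1.38 in BRQ_0h (0.687 to 2.49), and 1 UMI in the 14 cells of E2w_0h. The primary granule list did not move as a whole. Its proteases Prtn3 and Ctsg were lower. Prtn3 had a ratio of 0.571 in BRQ_0h (0.513 to 0.634) and 0.532 in E2w_0h (0.455 to 0.618). Ctsg had one of 0.839 in BRQ_0h (0.786 to 0.896) and 0.755 in E2w_0h (0.686 to 0.830). Plac8 was higher, with a ratio of 1.52 in BRQ_0h (1.46 to 1.59) and 1.46 in E2w_0h (1.38 to 1.54). Ms4a3 had a ratio of 0.846 in BRQ_0h (0.670 to 1.05) and 1.56 in E2w_0h (1.22 to 1.96).

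In level pooled over the same cells, progenitor genes went both ways, and the B lineage genes Ebf1 and Igll1 were lower. Myb was 1.78-fold higher in them in BRQ_0h (1.55 to 2.05) and 1.54-fold higher in E2w_0h (1.248 to 1.89). The ratios of these cells, here and above, pool the UMIs of 25 or 14 cells, so a few cells can set them. Their intervals do not cover the spread between cells. A Myb UMI was found in 84% of the 25 cells and 89.04% of the others of BRQ_0h. In E2w_0h it was found in 78.57% of the 14 cells and 89.99% of the others. Hlf had a ratio of the 25 cells over the others of 1.76 in BRQ_0h (1.39 to 2.19). Its ratio of the 14 cells over the others was 0.920 in E2w_0h (0.583 to 1.38). A Hlf UMI was found in 60% of the 25 cells and 71.65% of the others of BRQ_0h. In E2w_0h it was found in 57.14% of the 14 cells and 73.49% of the others. These shares of Myb and Hlf were not taken at equal depth. Kit had a ratio of 0.530 in BRQ_0h (0.303 to 0.863) and 0.643 in E2w_0h (0.308 to 1.18), an interval that includes 1. Ebf1 stood at 243 CPM in them against 464 CPM in the other cells of BRQ_0h, 1.91-fold lower (1.48 to 2.51), and at 140 CPM against 429 CPM in E2w_0h, 3.06-fold lower (1.94 to 5.17). Cd34 was 2.20-fold lower in BRQ_0h (1.35 to 3.86) and 2.54-fold lower in E2w_0h (1.23 to 6.33). Flt3 had 3 UMIs in the 25 cells, 12.2 CPM against 91.9 CPM, and 1 UMI in the 14 cells, 7.78 CPM against 89.6 CPM. Igll1 had 1 UMI in the 25 cells, 4.05 CPM against 94.7 CPM, and 4 UMIs in the 14 cells, 31.1 CPM against 89.0 CPM. Mpo was lower too, at 462 CPM against 938 CPM in BRQ_0h and at 661 CPM against 944 CPM in E2w_0h. Over single cells the median level of Cebpe was 605 CPM in the 25 cells and 55.7 CPM in the others of BRQ_0h, and 466 CPM in the 14 cells and 52.3 CPM in the others of E2w_0h. Ebf1 still had a UMI in 80.0% of the 25 cells and in 42.9% of the 14. Cultures treated for 24 or 48 h were in the same pool at high Prg2; whether wrong barcode calls brought some of these cells in was not tested.

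Correlations over the thinned cells, on the log of the count plus 1, placed Prg2 with Prg3, and Mpo with some of the granule genes. They are a description of cells that share a library and a depth. The genes most like Prg2 in BRQ_0h were Prg3 (r of 0.50 in BRQ_0h, 0.46 in E2w_0h), Cebpe (0.23 in BRQ_0h, 0.20 in E2w_0h), Anxa1 (0.21 in BRQ_0h, 0.21 in E2w_0h), Srgn (0.18 in BRQ_0h, 0.15 in E2w_0h) and Itm2b, a membrane protein (0.18 in BRQ_0h, 0.17 in E2w_0h). Those most like Mpo were Prtn3 (0.33 in BRQ_0h, 0.37 in E2w_0h), Ms4a3, a membrane protein of granulocyte precursors (0.28 in BRQ_0h, 0.29 in E2w_0h), Ctsg (0.28 in BRQ_0h, 0.25 in E2w_0h), mt-Cytb (0.20 in BRQ_0h, 0.14 in E2w_0h) and the protease inhibitor Slpi (0.20 in BRQ_0h, 0.22 in E2w_0h). The granule list did not hold together as a whole. Plac8 had an r with Mpo of 0.08 in both cultures, and with Prg3 of 0.28 in BRQ_0h and 0.29 in E2w_0h. For the remaining markers the highest values were weak. They were led by Top2a, a topoisomerase of dividing cells, for Ebf1 (0.19 in BRQ_0h, 0.18 in E2w_0h), by mt-Nd2 for Kit (0.20 in BRQ_0h, 0.16 in E2w_0h) and by Flt3 for Cd34 (0.13 in BRQ_0h, 0.07 in E2w_0h).

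Depth and mitochondrial share moved with the level of some markers. Kit stood at 343 CPM in the BRQ_0h cells of 10% or more mitochondrial UMIs and at 113 CPM in the others, and at 351 CPM in these cells and 114 CPM in the others of E2w_0h. Ebf1 stood at 1318 CPM in these cells of BRQ_0h and 430 CPM in the others, and at 1453 CPM in these cells and 397 CPM in the others of E2w_0h. Mpo stood at 2369 CPM in these cells of BRQ_0h and 880 CPM in the others, and at 2300 and 902 CPM in E2w_0h. Prg2 stood at 2617 and 615 CPM in the same order in BRQ_0h, and at 1661 and 602 CPM in E2w_0h. Cd34 differed less, at 153 and 141 CPM in BRQ_0h and at 151 and 137 CPM in E2w_0h. Plac8 differed in the other direction, at 3014 CPM in these cells of BRQ_0h and 6692 CPM in the others. In E2w_0h Plac8 stood at 3147 CPM in these cells and 6652 CPM in the others. Thinning to 4000 UMIs kept 34 of the 277 such cells of BRQ_0h and 18 of the 224 of E2w_0h. Over both cultures the mean level of Ebf1 was 414 CPM without these shallow cells and 444 CPM with them. The part of depth or mitochondrial share in these differences was not tested.

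The later cultures of each series are given beside the untreated cells, gene by gene and with no test. Ebf1 stood at 461, 472, 343, 296 and 163 CPM at 0, 6, 12, 24 and 48 h of brequinar. Over the same times of withdrawal it stood at 426, 36.9, 24.2, 12.6 and 17.8 CPM, so that the 0 h culture was 11.6-fold higher than the 6 h one (10.5 to 12.7). Hlf stood at 188, 155, 185, 150 and 119 CPM under brequinar and at 194, 19.4, 24.4, 17.6 and 21.3 CPM after withdrawal. Cd34 stood at 141, 337, 412, 362 and 102 CPM under brequinar, and at 138, 258, 211, 20.0 and 12.4 CPM after withdrawal. Kit stood at 121, 110, 107, 171 and 99.9 CPM under brequinar and at 121, 49.6, 84.4, 48.5 and 21.9 CPM after withdrawal.

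Prg2 stood lower at 0 h than at any later time in both series, and Mpo lower than at 24 h in both. Prg2 stood at 684, 749, 914, 2002 and 9165 CPM at 0, 6, 12, 24 and 48 h of brequinar, and at 631, 813, 2159, 9559 and 7519 CPM after withdrawal. Mpo stood at 931, 855, 873, 1384 and 1712 CPM under brequinar, and at 941, 1019, 1138, 2859 and 503 CPM after withdrawal. At 2500 UMIs per cell all 5 markers were found in 2.22, 2.80, 2.95, 2.93 and 1.17% of cells at the 5 times of brequinar. After withdrawal the share was 2.05% at 0 h, 0% at 6 h (0 of 1056 cells, with an upper 95% limit of 0.349%), 0.20% at 12 h and 0% at 24 and 48 h. The products of the 5 single shares were 1.41, 2.69, 2.32, 3.13 and 0.536% at the 5 times of brequinar. After withdrawal these products were 1.35, 0.144, 0.160, 0.00675 and 0.000963%, so they fell at 6 h as the observed share did.

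**Figure D5:**
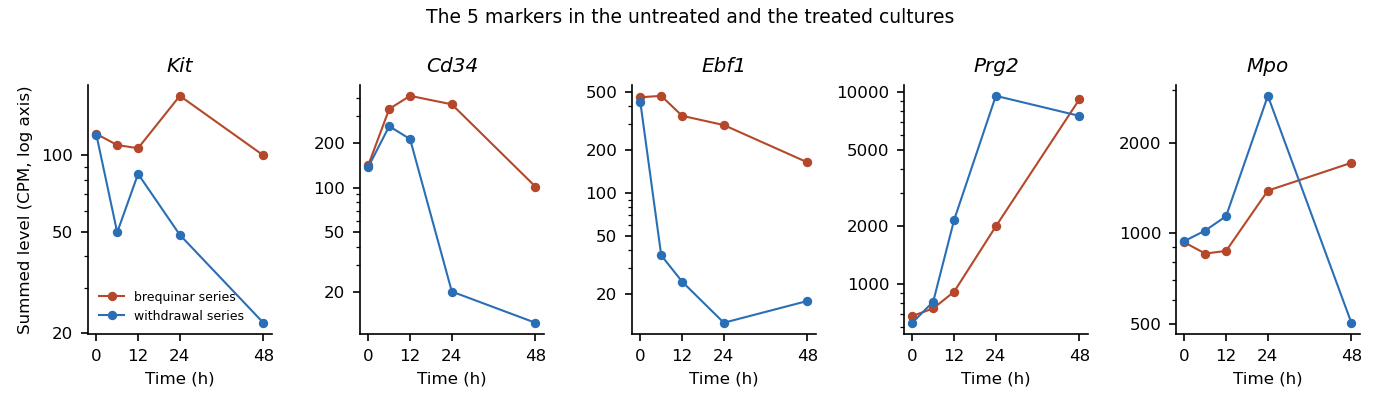
Level of the 5 markers (CPM, log axes with their own range for each gene) at 0, 6, 12, 24 and 48 h in the brequinar and the withdrawal series; each point is 1 culture and there are no error bars because no culture was repeated. Both 0 h points lie on or next to each other for every marker, and Ebf1 at 6 h lies at 36.9 CPM after withdrawal and 472 CPM under brequinar.

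Other members differed by gene. Igll1 stood at 93.4, 26.4, 54.7, 90.4 and 22.5 CPM at 0, 6, 12, 24 and 48 h of brequinar, and at 88.5, 36.2, 18.2, 4.94 and 3.50 CPM after withdrawal. Tcf3 stood between 56.1 and 67.2 CPM at all 5 times of brequinar, and at 69.1, 52.2, 49.7, 49.1 and 32.3 CPM after withdrawal. Sox4 stood at 148 CPM at 0 h and 64.5 CPM at 48 h of brequinar, and at 140 CPM at 0 h and 9.33 CPM at 48 h of withdrawal. Myb stood at 476 CPM at 0 h and 573 CPM at 48 h of brequinar, and at 480 CPM at 0 h and 170 CPM at 48 h of withdrawal. Cd48 stood at 137 CPM at 0 h and 130 CPM at 48 h of brequinar, and at 146 CPM at 0 h and 113 CPM at 48 h of withdrawal. The progenitor genes thus differed among themselves. Anxa1, of the maturation list, stood at 181 CPM at 0 h and 1757 CPM at 48 h of brequinar, and at 196 CPM at 0 h and 3418 CPM at 48 h of withdrawal. The median of the 6082 genes at 20 CPM or more in E2w_0h or at 48 h of withdrawal was higher at 0 h by 0.33 on the log2 scale, and the same median was -0.04 against 48 h of brequinar. No untreated culture was taken at the later times, so time in culture and treatment cannot be told apart.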

How the data were processed

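Single-cell RNA of the 63.3 line was profiled with 10x Genomics v3 chemistry after MULTI-seq barcoding of 10 cultures, as the labels' protocols state. UMI counts, not normalized, were deposited by the authors per cell barcode and gene (spliced matrix used, unspliced not used), and the matrix pools both runs without telling them apart. A barcode seen in both runs would be read as 1 cell. Per the submitters' processing notes, kallisto 0.46, bustools 0.39.4 and Cell Ranger were used. The genome build is not given in the sources used here. Ensembl IDs were given symbols from a reference table (54723 of 54838). Barcode calls and the table that ties each barcode to its culture are the authors' deposited ones. Called doublets (2777, 17.8% of 15582 barcodes) and negatives (265) were left out, no further doublet caller was run and no other filter on cells was set.

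Counts were summed per culture and scaled to CPM; 3 counts correspond to 0.151 CPM in BRQ_0h and 0.161 CPM in E2w_0h. Ratios carry exact conditional binomial intervals and shares exact Clopper-Pearson intervals. Thinning drew 4000 UMIs per cell without replacement (2500 across the 10 cultures), chosen in steps of 500 so that at least 80% of every culture's cells were deep enough. Steps were checked on simulated data. The members, markers and lists were chosen with earlier results of these data known.

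The genes named are the 5 markers, the 25 highest, the 3 highest of each list, those 1.5-fold apart, the 20 of highest Fano factor and the 5 most correlated with each marker, with predicted models left out and some of each not printed; Spi1, Cebpa, Gata1, Gata2, Pax5, Cd3e, Esr1, Hoxa9 and Meis1 were always given, and 1 further gene of this rule is not reported here. BC100530, Epx, Irf8, Csf1r, Itgam, Ly6g, Flt3, Elane, Srgn, Cd79a, Cd79b, Vpreb3, Rag1, Hoxa5, Hoxa10, Hdc and the low-count genes Fen1, Gins2, Lyz2 and Cd24a were named after their values were seen. Analyses used Python 3.11.15, numpy 2.4.6, scipy 1.17.1 and pandas 2.3.3, and edgeR for TMM factors in an alternative.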

Additional observations from a re-analysis of the deposited data

How the results depend on the processing

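The count of genes 1.5-fold apart between BRQ_0h and E2w_0h was 3 and ran from 2 to 4 without cells of 10% or more mitochondrial UMIs, without the 10% of cells of the most UMIs, with equal weight per cell, with median-of-ratios size factors and with TMM factors. It was 14 with genes at 5 CPM or more, 5927 with no filter on low genes, 0 at 2-fold and 12 at the smaller fold tried (0.219% of 5490 genes). Without the 3 cells rich in secondary granule genes, an alternative chosen after seeing the data, it was 0.

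The 70 lineage genes at 20 CPM or more in both cultures ran from 66 with 5% of free RNA removed to 74 with equal weight per cell; either culture alone gave 73, and thresholds of 5 and 50 CPM gave 92 and 49. The mean share of cells with all 5 markers was 6.02%. It was 4.82% without cells of 10% or more mitochondrial UMIs, 4.53% without the 10% of cells of the most UMIs, 48.0% with no thinning, 2.00% thinned to 2500 UMIs, 0.172% where 2 UMIs make a cell positive and 5.36% in another random draw, and 5.60% as the mean of 20 draws; the last 2 were chosen after seeing the data. Without either culture it was 5.56 to 6.48%. Its ratio to the product of the single shares was 1.21; it was 0.984 without the deepest cells, 1.07 without cells of 10% or more mitochondrial UMIs, 1.08 in another draw, 1.23 with no thinning, 1.38 thinned to 2500 UMIs and 2.28 where 2 UMIs make a cell positive. Ratios of marker pairs ran from 0.752 to 1.39 where 2 UMIs make a cell positive. The mean level of Prg2 was 657 CPM, 1072 CPM with equal weight per cell and 244 CPM without the cells rich in Prg2 and Prg3; no other of 15 named levels moved by over 1.5 times.

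No paired analysis was possible because each 0 h condition is 1 culture and no test was run. Counts were of spliced UMIs, so depth limits genes under 0.151 to 0.161 CPM; free RNA, same-culture doublets and wrong barcode calls were bounded or not tested, as given beside the results.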
